A study of Mus musculus with 30 samples.

Results

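The chemokine system of gonadal white adipose tissue (gWAT) is described here in 30 libraries from female New Zealand Obese mice (strain NZO/HIBomDife), a polygenic model of obesity. Its genes were taken by symbol: every gene named *Ccl*, *Cxcl* or *Ccr*, *Cxcr* or *Ackr* with a number, together with *Cx3cl1*, *Cx3cr1* and *Xcr1*. Of the 63 such genes among 55401 in the table, 62 are described, made up of 40 ligands, 18 conventional receptors and 4 atypical receptors. The ligands comprised 26 of the CC class, 13 of the CXC class and 1 of the CX3C class.

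Of the mice, 15 were diabetes-prone (DP) and 15 were diabetes-resistant (DR), with 1 library from each animal. All mice received a high-fat diet, were classified by a risk score after 5 weeks of it, and gave their gWAT at 10 weeks of age, before hyperglycemia. DR mice, which stay normoglycemic for most of their lives, served as controls. The group of each mouse is therefore a prediction made from its phenotype and not an observed outcome, and no mouse carried a transgene or received a drug according to the labels.

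Chemokines are small secreted proteins that direct the migration of leukocytes, and they act through receptors that couple to inhibitory G proteins. The class of a ligand is set by the spacing of its first conserved cysteines. Inflammatory ligands such as *Ccl2* and *Ccl3* are made on demand and recruit monocytes and other cells to tissue, homeostatic ligands such as *Ccl21a* and *Cxcl13* organise lymphoid traffic, and atypical receptors bind chemokines and clear them without G-protein signalling. In obese fat, *Ccl2* and its receptor *Ccr2* are known for the recruitment of monocytes that become macrophages.

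Total counts were similar across libraries (28146906 to 29974243), with 23854 to 24666 genes detected by 1 count or more. Levels are given as CPM (counts scaled to a common library size with TMM factors), as the lowest, median and highest library of a group or as the mean ± SD (n = 15 each). The tissue label was checked against adipocyte markers, whose 15 genes were all detected and summed to 32593 to 42714 CPM in DP libraries and 42906 to 50262 CPM in DR libraries. These sums did not overlap, and 14 of the 15 genes were lower in DP, 0 were higher and 1 did not pass. The 20 macrophage markers summed to 5302 to 7683 CPM in DP and 2091 to 4843 CPM in DR, with no overlap, and 16 of them rose, 2 fell and 2 did not pass. In bulk tissue, more cells of a type and more RNA per cell cannot be told apart. Among the DP libraries replicate 4 stood apart for these genes, with the highest DP level of 15 of the 46 members tested. The results that rest on it are given with and without it.

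Chemokine and receptor genes changed in both directions, and more often upward. Of the 62 members, 46 passed the filter on low counts, and of these 19 were higher in DP, 11 were lower and 16 did not pass (edgeR quasi-likelihood test, adjusted p under 0.05). Over all 17482 genes tested, 55.5% were called, 28.2% higher and 27.3% lower, against 41.3% of the tested members higher and 23.9% lower. The median log2 fold change was 0.0985 over the tested members and -0.0056 over all genes. With a fitted fold of at least 1.5 required as well, 14 members were higher and 5 lower, beside 7.09% and 4.6% of all genes. In 3 members, *Ccl3*, *Ccl6* and *Ccl9*, every DP library lay above every DR library. This was seen in 1.96% of all genes, the reverse in 0.927% and either in 2.89%. No member had every DP library below every DR library.

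By role, 14 of 30 tested ligands were higher and 8 lower, 5 of 12 tested conventional receptors were higher and 2 lower, and 1 of 4 atypical receptors was lower. Among the CC ligands 9 were higher and 7 lower of 20, and among the CXC ligands 4 were higher and 1 lower of 9. Over all genes tested, 28.2% were higher and 27.3% lower. Of the 7 lower CC ligands, 5 were *Ccl19* and *Ccl21* copies that share sequence with other members. Neither these 7 nor the 11 lower members are therefore all separate findings. All the counts that fell on the 62 members ranged from 41249 to 59498 per DP library (median 48861), against 23475 to 44791 per DR library (median 31867). *Ccl6* and *Ccl9* together took 50.7% of these counts in DP and 38.8% in DR.

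Scaled by exon length (FPKM), *Ccl6* was the most abundant member, at 272 FPKM in DP and 143 in DR. It was followed by *Ccl9* at 119 FPKM in DP and 59.3 in DR, and then by a group of CC ligands around *Ccl11* (45.6 FPKM in DP and 51.9 in DR) and *Ccl8* (57.5 FPKM in DP and 33.03 in DR). The most abundant CXC ligand was *Cxcl12*, at 26.7 FPKM in DP and 25.6 in DR. Among receptors, *Cxcr4* had 21.1 FPKM in DP and 14.3 in DR and *Ackr3* 12.3 FPKM in DP and 12.8 in DR.

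**Figure D1:**
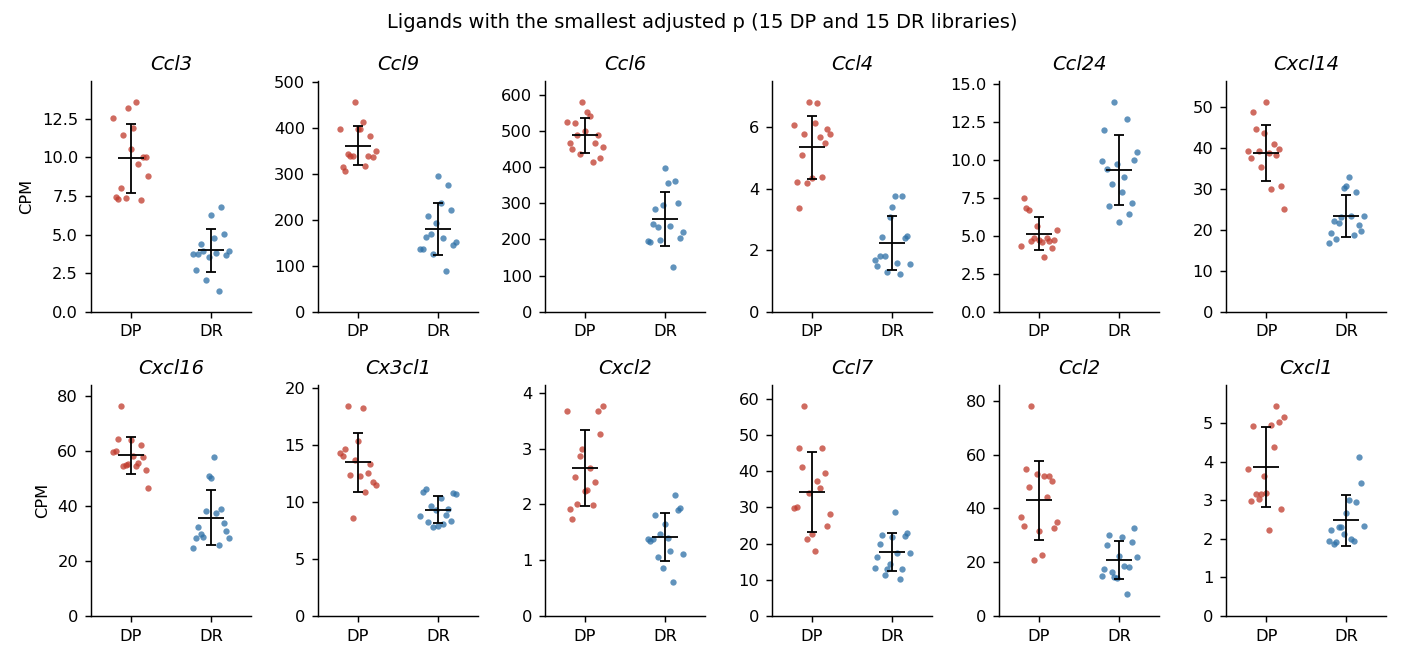
CPM of the 12 ligands with the smallest adjusted p in each DP library (left, red) and DR library (right, blue), with 15 points per group and the mean ± SD as black bars. *Ccl3*, *Ccl9* and *Ccl6* show no overlap between the groups, and *Ccl24* is the only one of the 12 that is lower in DP.

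The most separated ligands were *Ccl3*, *Ccl4*, *Ccl6* and *Ccl9*, which lie side by side on chromosome 11. *Ccl3* (macrophage inflammatory protein 1 alpha, chromosome 11, 83647844 to 83649355 of GRCm38), a ligand of CCR1, had a lowest, median and highest level of 7.25, 10.03 and 13.6 CPM in DP libraries, against 1.36, 3.78 and 6.77 CPM in DR libraries. The lowest DP library thus lay above the highest DR library, and the gene was 2.49-fold higher in DP (log2 fold change 1.32 ± 0.16 SE, adjusted p = 2.46e-08). Its neighbour *Ccl4* (macrophage inflammatory protein 1 beta) had 3.36, 5.68 and 6.82 CPM in DP and 1.22, 1.81 and 3.78 CPM in DR (2.37-fold, log2 fold change 1.25 ± 0.15 SE, adjusted p = 5.00e-08). For this gene 14 of 15 DP libraries exceeded the highest DR library.

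*Ccl6* and *Ccl9*, both CCR1 ligands found in rodents, were the most abundant chemokine transcripts and roughly doubled together. *Ccl6* (chromosome 11, 83587882 to 83593087) had 415, 489 and 579.9 CPM in DP libraries, against 125, 238 and 396 CPM in DR libraries (1.901-fold, log2 fold change 0.93 ± 0.11 SE, adjusted p = 3.51e-08). *Ccl9* (chromosome 11, 83572919 to 83578636) had 307, 343 and 457 CPM in DP libraries, against 88.9, 162 and 295 CPM in DR libraries (2.004-fold, log2 fold change 1.003 ± 0.12 SE, adjusted p = 3.22e-08). Both genes had narrower relative spread in DP than in DR, with coefficients of variation in DP and DR of 10.02% and 29.1% for *Ccl6*, and 11.8% and 31.8% for *Ccl9*. The fifth gene of this group, *Ccl5*, a ligand typical of activated T cells, did not follow the other four. It had 3.63, 7.32 and 17.7 CPM in DP and 4.54, 7.93 and 13.9 CPM in DR (log2 fold change -0.085 ± 0.17 SE, adjusted p = 0.689).

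The monocyte chemoattractants *Ccl2*, *Ccl7* and *Ccl12*, all CCR2 ligands in the mouse, were also higher in DP. *Ccl2* (chromosome 11, 82035571 to 82037453) had 20.8, 44.1 and 78.1 CPM in DP libraries, against 7.98, 18.7 and 32.9 CPM in DR libraries. It was 2.06-fold higher (log2 fold change 1.04 ± 0.18 SE, adjusted p = 8.53e-06), and 11 DP libraries exceeded the highest DR library. *Ccl7* had 17.9, 33.9 and 57.9 CPM in DP and 10.2, 17.4 and 28.7 CPM in DR (1.94-fold, log2 fold change 0.96 ± 0.16 SE, adjusted p = 4.68e-06). *Ccl12* was less abundant and more variable, with 3.12, 5.77 and 10.6 CPM in DP and 1.55, 3.06 and 7.75 CPM in DR (1.66-fold, log2 fold change 0.73 ± 0.19 SE, adjusted p = 0.00188). *Ccl8*, which in the mouse acts on CCR8, averaged 29.4 ± 14.3 CPM in DP and 16.9 ± 6.95 CPM in DR (1.74-fold, adjusted p = 0.00114). In the 15 libraries numbered 198 to 212 in the labels alone, neither *Ccl8* (log2 fold change 0.38, adjusted p = 0.213) nor *Ccl12* (0.499, adjusted p = 0.142) passed. DP replicate 4 held the highest *Ccl8* value, 68.8 CPM, and also the highest *Ccl12*. Without that library all 19 higher and 11 lower calls among members were kept.

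The eotaxins went the other way. *Ccl24* (eotaxin-2, chromosome 5, 135569937 to 135573049), which attracts eosinophils through CCR3, had 3.57, 4.73 and 7.47 CPM in DP libraries, against 5.89, 9.36 and 13.8 CPM in DR libraries. In 12 of 15 DP libraries the level was below the lowest DR library, and the gene was 1.81-fold lower in DP (log2 fold change -0.85 ± 0.12 SE, adjusted p = 2.45e-07). *Ccl11* (eotaxin-1), whose gene lies between *Ccl7* and *Ccl12*, had 42.04, 49.5 and 62.1 CPM in DP and 44.3, 55.9 and 69.7 CPM in DR. The difference was small but passed (1.14-fold lower in DP, with log2 fold change -0.19 ± 0.056 SE, adjusted p = 0.005), though not in libraries 198 to 212 alone (adjusted p = 0.0704). *Ccl24* moved in the same direction as *Timd4* (1.54-fold lower, 4.02 ± 1.19 CPM in DP and 6.1996 ± 1.54 CPM in DR) and *Cd163* (1.31-fold lower, 40.1 ± 8.802 CPM in DP and 52.5 ± 7.48 CPM in DR), the 2 of the 20 macrophage markers that fell. Of the other macrophage markers 16 rose, opposite to *Ccl24*, and 2 did not pass. The part of *Timd4* and *Cd163* in the result was not tested, and both were singled out after their values were seen.

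Among the CXC ligands, *Cxcl1* and *Cxcl2*, the neutrophil attractants that act through CXCR2, were higher in DP. *Cxcl2* (chromosome 5, 90903871 to 90905938) had 1.73, 2.49 and 3.76 CPM in DP libraries, against 0.608, 1.38 and 2.17 CPM in DR libraries (1.88-fold, log2 fold change 0.91 ± 0.15 SE, adjusted p = 4.04e-06). *Cxcl1* (chromosome 5, 90891241 to 90893115) had 2.23, 3.63 and 5.44 CPM in DP libraries, against 1.87, 2.304 and 4.11 CPM in DR libraries (1.56-fold, log2 fold change 0.64 ± 0.13 SE, adjusted p = 0.000136). The groups overlapped for both, and 11 DP libraries for *Cxcl2* and 6 for *Cxcl1* exceeded the highest DR library. The third gene of this set, *Cxcl3*, was too low to be tested. Its counts summed to 43 in DP and 5 in DR, and it had at least 1 count in 11 DP libraries and 2 DR libraries. The receptor was at the limit as well: *Cxcr2* summed to 146 counts in DP and 86 in DR, and *Cxcr1* to 6 and 2. The summed neutrophil markers were 33.7 to 60.8 CPM in DP and 15.4 to 46.1 CPM in DR. Of 9 such markers, 5 rose, 0 fell, 3 did not pass and *Ly6g* was too low to be tested, and their part in the *Cxcl1* and *Cxcl2* result was not tested.

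The promoters of these neighbouring genes are printed because all 3 hold a match to the binding motif of NF-kB, which 11.2% of all 32851 promoters of this length held. Each sequence spans 250 bases before to 50 bases after the RefSeq start site on GRCm38.p6, 5′ to 3′ on the gene's own strand (plus for *Cxcl1*, *Cxcl2* and *Cxcl3*, minus for *Ccl9*). Capitals mark matches to the binding motif of NF-kB, searched on both strands, and to the TATA box letters TATAAA, searched on the sense strand. *Ccl9* is added as the non-overlapping ligand that held a match to both, while *Ccl3* and *Ccl6* held neither. Their positions are chr5:90890995-90891294 for *Cxcl1*, chr5:90903649-90903948 for *Cxcl2*, chr5:90785851-90786150 for *Cxcl3* and chr11:83578587-83578886 for *Ccl9*.
Cxcl1: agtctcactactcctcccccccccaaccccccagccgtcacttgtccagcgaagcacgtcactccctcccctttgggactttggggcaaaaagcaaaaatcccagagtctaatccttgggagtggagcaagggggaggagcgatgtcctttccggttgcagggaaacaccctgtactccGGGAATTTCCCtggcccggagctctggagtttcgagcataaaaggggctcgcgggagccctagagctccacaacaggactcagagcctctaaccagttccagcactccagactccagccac
Cxcl2: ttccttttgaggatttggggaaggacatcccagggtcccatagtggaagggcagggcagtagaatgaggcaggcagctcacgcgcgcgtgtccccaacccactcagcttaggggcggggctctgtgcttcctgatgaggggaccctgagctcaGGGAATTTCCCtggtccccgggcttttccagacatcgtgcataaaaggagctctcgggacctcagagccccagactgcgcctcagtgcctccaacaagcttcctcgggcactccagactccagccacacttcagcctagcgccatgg
Cxcl3: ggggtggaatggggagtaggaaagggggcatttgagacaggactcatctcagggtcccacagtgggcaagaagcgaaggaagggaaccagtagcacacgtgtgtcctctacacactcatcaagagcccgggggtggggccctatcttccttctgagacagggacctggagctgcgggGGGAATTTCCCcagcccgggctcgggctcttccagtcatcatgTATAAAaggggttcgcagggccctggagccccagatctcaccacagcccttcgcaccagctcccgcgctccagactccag
Ccl9: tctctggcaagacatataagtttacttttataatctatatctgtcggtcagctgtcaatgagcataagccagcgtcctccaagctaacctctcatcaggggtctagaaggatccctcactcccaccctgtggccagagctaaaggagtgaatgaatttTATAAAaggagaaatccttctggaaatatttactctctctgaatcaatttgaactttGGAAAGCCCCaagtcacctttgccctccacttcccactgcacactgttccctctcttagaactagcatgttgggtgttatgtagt

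*Cxcl1*, *Cxcl2* and *Cxcl3* carried the identical run GGGAATTTCCC, in which 2 matches overlap, beginning 71, 97 and 73 bases before the start. In *Ccl9* the NF-kB match began 35 bases before the start and the TATA match 92 bases before it. RefSeq gave a promoter for 46 of the 62 members. Some have several start sites, which made 53 promoters. The NF-kB motif occurred in 26.4% of these, against 11.2% of all 32851 promoters of this length, and TATAAA in 22.6%, against 8.32%. Of the members with a promoter, 6 of 15 that were higher held the NF-kB motif (*Ccl9*, *Ccr1*, *Ccr3*, *Cxcl1*, *Cxcl2* and *Cxcl14*), 0 of 5 that were lower, 4 of 13 that did not pass and 4 of 13 that were not tested. The 5 lower ones are not separate cases, as they include the copies *Ccl21a*, *Ccl21b* and *Ccl21d*. The *Ccl21a* and *Ccl21d* promoters are nearly the same sequence. The *Ccl21b* promoter (chr4:42172870-42173169) lies apart from the gene position used here, which starts at 42255767. Of the other motifs, all searched on both strands, AP-1 (TGANTCA) was found in 18.9% of member promoters and 7.81% of all promoters, PU.1 (GAGGAA) in 35.8% and 28.3%, C/EBP (TTGCNNAA) in 15.1% and 10.8%, and the interferon response element (GAAANNGAAA) in 5.66% and 3.44%. These shares were not tested. A match is a description of the letters, and binding was not measured.

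Ligands with a stalk that anchors them to the cell surface were higher as well. *Cxcl16*, the ligand of CXCR6 and a scavenger of oxidised lipoprotein, had 46.5, 57.9 and 76.2 CPM in DP libraries, against 24.6, 32.3 and 57.8 CPM in DR libraries (1.64-fold, log2 fold change 0.71 ± 0.10 SE, adjusted p = 6.50e-07). Exons of *Cxcl16* overlap those of *Zmynd15* on the other strand, and counting is not stated to use strand. *Cx3cl1* (fractalkine), the ligand of CX3CR1, had 8.57, 13.4 and 18.4 CPM in DP libraries, against 7.84, 9.301 and 11.2 CPM in DR libraries (1.44-fold, log2 fold change 0.53 ± 0.084 SE, adjusted p = 3.02e-06). Fractalkine overlapped little between the groups, with 13 DP libraries above the highest DR library. *Cxcl14*, an old and conserved CXC chemokine, had 25.2, 39.2 and 51.3 CPM in DP and 16.8, 22.1 and 33.04 CPM in DR (1.66-fold, log2 fold change 0.73 ± 0.1 SE, adjusted p = 2.65e-07). *Ccl22*, a CCR4 ligand of dendritic cells and macrophages, differed least of the higher ligands, at 2.52 ± 0.375 CPM in DP and 2.08 ± 0.462 CPM in DR (1.21-fold, adjusted p = 0.0218). Its call was lost without the least correlated library of each group (adjusted p = 0.0718).

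The interferon-inducible ligands of CXCR3 did not pass. *Cxcl9* averaged 56.5 ± 31.1 CPM in DP and 64.2 ± 25.4 CPM in DR (adjusted p = 0.454) and *Cxcl10* 10.1 ± 5.11 CPM in DP and 7.83 ± 4.44 CPM in DR (adjusted p = 0.152). *Cxcl11*, a pseudogene in some mouse strains, averaged 1.22 ± 0.3597 CPM in DP and 1.43 ± 0.367 CPM in DR (adjusted p = 0.207). The highest *Cxcl9* and *Cxcl10* values in DP, 154 and 26.1 CPM, were both in replicate 4. The stromal ligand *Cxcl12*, which retains leukocytes and progenitors through CXCR4, had 181, 209 and 284 CPM in DP libraries, against 173, 207 and 269 CPM in DR libraries (log2 fold change 0.058 ± 0.066 SE, adjusted p = 0.472).

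*Ccl21a*, made by lymphatic vessels and lymphoid stroma and read by CCR7, had 0, 2.62 and 5.98 CPM in DP libraries, against 0, 6.51 and 18.3 CPM in DR libraries. All DP libraries lay below the DR median, yet the spread was wide in both groups and a library in each had 0 counts (2.57-fold lower in DP, with log2 fold change -1.36 ± 0.51 SE, adjusted p = 0.0237). The call was lost with limma-voom (adjusted p = 0.12) and without the filter (adjusted p = 0.0526). The copies *Ccl21b* (0.194 ± 0.168 CPM in DP and 0.544 ± 0.343 CPM in DR, adjusted p = 0.0073) and *Ccl21d* (0.201 ± 0.167 CPM in DP and 0.549 ± 0.343 CPM in DR, adjusted p = 0.00566) were lower too. They are no separate evidence, because all distinct 50-base words of *Ccl21b* transcripts, 83.8% of those of *Ccl21d* and 71.6% of those of *Ccl21a* occur in another member, so the split of most of their reads is uncertain. The lymphatic endothelial genes *Prox1* (0.588 ± 0.323 CPM in DP and 1.48 ± 1.35 CPM in DR, 2.502-fold lower) and *Reln* (0.697 ± 0.443 CPM in DP and 1.87 ± 1.33 CPM in DR, 2.68-fold lower) were also lower, and 11 of 12 endothelial and lymphatic markers fell, 0 rose and 1 did not pass. The summed level of these 12 was 700 to 1128 CPM in DP and 904 to 1324 CPM in DR. Their part in the *Ccl21a* result was not tested, and *Prox1* and *Reln* were singled out after their values were seen.

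*Ccl19*, the second CCR7 ligand, had 0.201, 0.477 and 1.11 CPM in DP libraries, against 0.47003, 0.541 and 0.916 CPM in DR libraries (log2 fold change -0.08 ± 0.20 SE, adjusted p = 0.752). Its pseudogene copies *Ccl19-ps1* (0.811 ± 0.356 CPM in DP and 1.15 ± 0.358 CPM in DR, adjusted p = 0.035) and *Ccl19-ps3* (0.657 ± 0.225 CPM in DP and 0.9104 ± 0.186 CPM in DR, adjusted p = 0.00831) were lower, but 30.2% of the 50-base words of *Ccl19* itself are shared with them and the split of reads is uncertain. The *Ccl19-ps1* call was lost without the filter (adjusted p = 0.0672). *Cxcl13*, the B cell attractant read by CXCR5, had 0.806, 1.696 and 4.02 CPM in DP libraries, against 1.55, 2.52 and 5.26 CPM in DR libraries (1.42-fold lower in DP, with log2 fold change -0.51 ± 0.20 SE, adjusted p = 0.0339). Its call was lost without the filter on low counts (adjusted p = 0.064). *Ccl27a*, an epithelial ligand of CCR10, had 2.38, 4.35 and 5.44 CPM in DP and 3.09, 4.43 and 6.303 CPM in DR (log2 fold change -0.13 ± 0.11 SE, adjusted p = 0.288). *Ccl25*, the CCR9 ligand of thymus and gut, averaged 4.79 ± 0.481 CPM in DP and 4.91 ± 0.563 CPM in DR (adjusted p = 0.63), and its exons overlap those of *Elavl1*.

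**Figure D2:**
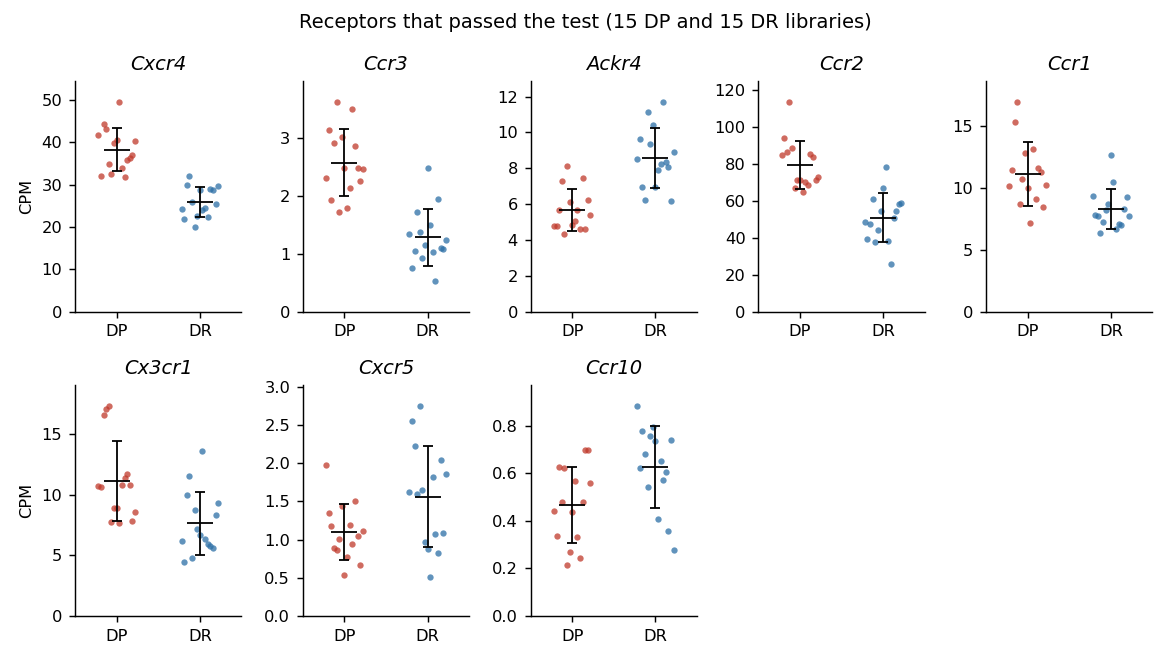
CPM of 8 receptors that passed the test in each DP library (left, red) and DR library (right, blue), with 15 points per group and the mean ± SD as black bars. *Cxcr4*, *Ccr3*, *Ccr2*, *Ccr1* and *Cx3cr1* are higher in DP, and *Ackr4*, *Cxcr5* and *Ccr10* are the 3 that are lower in DP.

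*Ccr2*, *Ccr3*, *Ccr1*, *Cxcr4* and *Cx3cr1* were higher in DP, with overlap between the groups in each. *Ccr2*, the CCL2 receptor of inflammatory monocytes (chromosome 9, 124101950 to 124113557), had 64.9, 73.1 and 114 CPM in DP libraries, against 26.1, 50.7 and 78.4 CPM in DR libraries (1.56-fold, log2 fold change 0.64 ± 0.11 SE, adjusted p = 8.63e-06). All DP libraries exceeded the DR median and 7 exceeded the highest DR library. The monocyte markers were split, 2 higher (*Plac8* and *Nr4a1*) and 2 lower (*F13a1* and *Ly6c2*) of 7 tested. Their part in the *Ccr2* result was not tested.

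*Ccr3*, the eotaxin receptor of eosinophils, doubled at a low level, with 1.72, 2.48 and 3.63 CPM in DP libraries, against 0.537, 1.15 and 2.49 CPM in DR libraries (2.003-fold, log2 fold change 1.002 ± 0.16 SE, adjusted p = 2.22e-06). Of the eosinophil markers in the mast cell and eosinophil list, *Siglecf* averaged 0.644 ± 0.283 CPM in DP and 0.4103 ± 0.294 CPM in DR (adjusted p = 0.0898), while *Epx* and *Prg2* were too low to be tested. The whole list of 9 had 5 that rose, among them the mast cell proteases *Cpa3*, *Cma1*, *Tpsb2* and *Mcpt4*, 1 that fell, 1 that did not pass and 2 not tested. It summed to 57.6 to 110.4 CPM in DP and 45.2 to 62.9 CPM in DR, and its part in the *Ccr3* result was not tested. *Ccr1*, the receptor of CCL3, CCL6 and CCL9, had 7.14, 10.8 and 16.95 CPM in DP libraries, against 6.36, 7.78 and 12.7 CPM in DR libraries (1.34-fold, log2 fold change 0.42 ± 0.11 SE, adjusted p = 0.00106).

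*Cxcr4*, the CXCL12 receptor, was higher in all 15 DP libraries than the DR median. It had 31.7, 36.9 and 49.5 CPM in DP libraries, against 20.1, 25.4 and 32.04 CPM in DR libraries (1.47-fold, log2 fold change 0.56 ± 0.068 SE, adjusted p = 4.42e-08). *Cx3cr1*, the fractalkine receptor of patrolling monocytes and resident macrophages, had 7.67, 10.8 and 17.3 CPM in DP libraries, against 4.44, 6.6999 and 13.6 CPM in DR libraries (1.46-fold, log2 fold change 0.54 ± 0.15 SE, adjusted p = 0.00344). The groups overlapped more here, as only 3 DP libraries exceeded the highest DR library. In libraries 198 to 212 alone neither *Cx3cr1* (log2 fold change 0.34, adjusted p = 0.158) nor *Ccr1* (0.22, adjusted p = 0.277) passed.

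The receptors that fell were expressed at a low level or are atypical. *Ackr4*, which clears CCL19, CCL21 and CCL25, had 4.36, 5.402 and 8.14 CPM in DP libraries, against 6.16, 8.34 and 11.7 CPM in DR libraries (1.51-fold lower in DP, with log2 fold change -0.59 ± 0.10 SE, adjusted p = 8.17e-06). In 11 DP libraries it was below the lowest DR library. Its exons overlap *Acad11* on the other strand, as those of *Cxcr5* do with *Bcl9l*, *Cxcl10* with *Art3*, *Cxcl11* with *Gm2673* and *Cx3cr1* with *Gm33858*, and such reads cannot be told apart. *Cxcr5*, the CXCL13 receptor of follicular B and T cells, had 0.537, 1.05 and 1.98 CPM in DP libraries, against 0.511, 1.62 and 2.75 CPM in DR libraries (1.42-fold lower in DP, with log2 fold change -0.51 ± 0.20 SE, adjusted p = 0.0323). Of 10 B and plasma cell markers, 0 rose, 1 fell, 7 did not pass and 2 were not tested, with sums of 14.3 to 40.9 CPM in DP and 14.4 to 51.8 CPM in DR. Their part in the *Cxcl13* and *Cxcr5* results was not tested. *Ccr10* had 0.215, 0.477 and 0.699 CPM in DP and 0.276, 0.653 and 0.881 CPM in DR (1.34-fold lower in DP, with log2 fold change -0.42 ± 0.17 SE, adjusted p = 0.0369). Without the filter neither *Cxcr5* (adjusted p = 0.0619) nor *Ccr10* (adjusted p = 0.0724) passed. *Ccr10* was also lost with limma-voom (adjusted p = 0.0706), with library totals alone (0.0534) and without the least correlated library of each group (0.0644).

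The 8 remaining receptors are those of lymphocyte, dendritic cell and scavenging function, and none of them passed. *Ccr7*, which guides dendritic cells and naive T cells to lymph nodes, had 0.491, 1.28 and 2.996 CPM in DP libraries, against 0.825, 1.104 and 2.05 CPM in DR libraries (log2 fold change 0.23 ± 0.19 SE, adjusted p = 0.315). *Ccr9*, a gut homing receptor, had 0.562, 0.992 and 1.83 CPM in DP and 0.309, 0.687 and 1.89 CPM in DR (log2 fold change 0.39 ± 0.20 SE, adjusted p = 0.0994), and its exons overlap 3 other genes. *Cxcr3*, the receptor of CXCL9, CXCL10 and CXCL11 on T cells and natural killer cells, averaged 3.67 ± 1.58 CPM in DP and 3.68 ± 0.684 CPM in DR (adjusted p = 0.987). *Cxcr6*, the CXCL16 receptor, had 0.705, 1.29 and 4.43 CPM in DP and 0.756, 1.52 and 2.66 CPM in DR (log2 fold change 0.0087 ± 0.23 SE, adjusted p = 0.979). *Xcr1*, a marker of cross-presenting dendritic cells, averaged 1.905 ± 0.423 CPM in DP and 1.73 ± 0.394 CPM in DR (adjusted p = 0.319). The atypical receptors *Ackr1* (8.31 ± 1.4998 CPM in DP and 8.38 ± 1.75 CPM in DR), *Ackr2* (4.21 ± 1.04 CPM in DP and 4.28 ± 1.02 CPM in DR) and *Ackr3* (41.1 ± 8.46 CPM in DP and 42.9 ± 5.78 CPM in DR) had adjusted p = 0.934, 0.887 and 0.557. Of 11 T cell markers 3 were higher and 0 lower, and of 8 dendritic cell markers 1 was higher and 3 lower, beside 28.2% and 27.3% of all genes.

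The remaining 16 members were too low to be tested. *Ccl20*, *Ccl26* and *Cxcl15* had 0 counts in all 30 libraries, which allows up to 0.00688 CPM over the DP libraries and 0.007 CPM over the DR libraries (a limit of 3 counts, covering counting error only). The other 13 had between 8 and 254 counts over all libraries: *Ccl1*, *Ccl17*, *Ccl27b*, *Ccl28*, *Cxcl3*, *Cxcl5*, *Cxcl17*, *Ccr1l1*, *Ccr4*, *Ccr6*, *Ccr8*, *Cxcr1* and *Cxcr2*. Receptors for several measured ligands were therefore not detectable enough to compare at this depth, such as *Ccr4* for *Ccl22* (52 counts in DP and 34 in DR) and *Ccr8* for *Ccl8* (23 and 11).

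**Figure D3:**
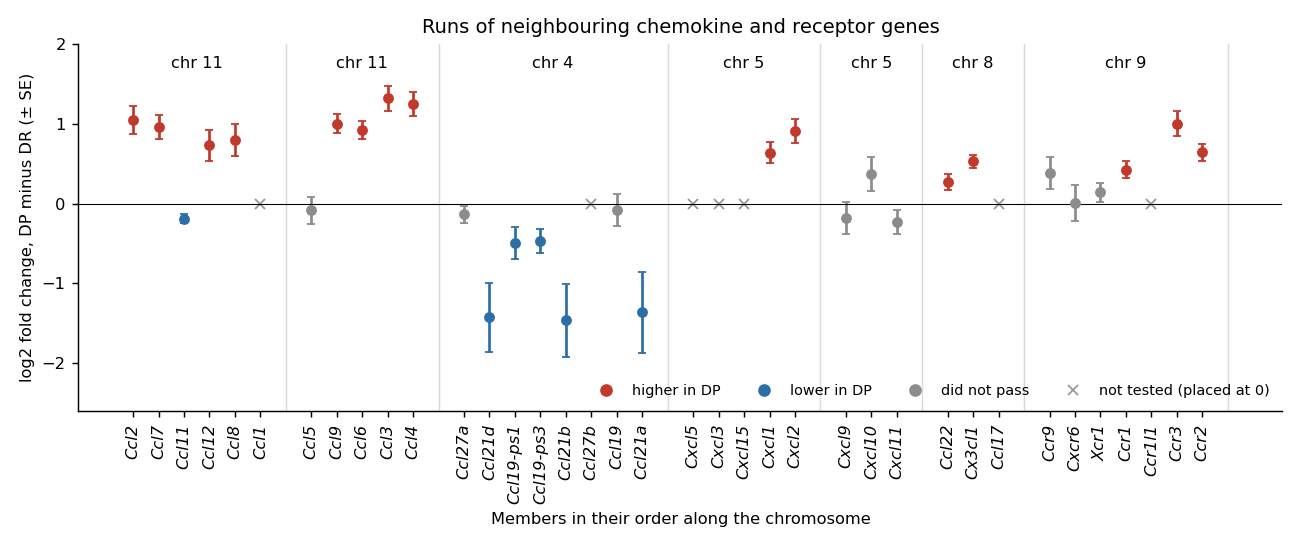
log2 fold change, DP minus DR, ± SE for members that lie within 1 Mb of one another, in runs of at least 3 and in their order along the chromosome. Red points are higher in DP, blue points lower, grey points did not pass and crosses were not tested. *Ccr1*, *Ccr3* and *Ccr2* on chromosome 9 are all higher, while *Ccl11* is the only lower gene of its run on chromosome 11.

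Many members lie in clusters, and neighbours often but not always moved together. With members joined where at most 1 Mb apart, 7 runs held at least 3 members. On chromosome 11, the run from 82035571 to 82305690 held 6 members, of which *Ccl2*, *Ccl7*, *Ccl12* and *Ccl8* were higher, *Ccl11* was lower and *Ccl1* was not tested. The run from 83525778 to 83664683 held 5, of which *Ccl9*, *Ccl6*, *Ccl3* and *Ccl4* were higher and *Ccl5*, at its edge, did not pass. The receptor run on chromosome 9, 123678439 to 124113557, split into *Ccr9*, *Cxcr6* and *Xcr1* on one side, which did not pass, and *Ccr1*, *Ccr3* and *Ccr2* on the other, which were all higher. The neighbour of *Ccr1*, *Ccr1l1*, was not tested. The distance between neighbours was not used in any test.

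On chromosome 5, *Cxcl1* and *Cxcl2* were higher in a run of 5 (90759360 to 90905938) whose other 3 members were not tested, and none of *Cxcl9*, *Cxcl10* and *Cxcl11* (92321347 to 92365485) passed. On chromosome 8, *Ccl22* and *Cx3cl1* were higher and *Ccl17* was not tested (94745590 to 94812036). The run on chromosome 4, 41769467 to 42773993, held 8 members, of which 5 were lower, 2 did not pass and 1 was not tested. The 5 lower ones are the *Ccl19* and *Ccl21* copies that share sequence.

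**Figure D4:**
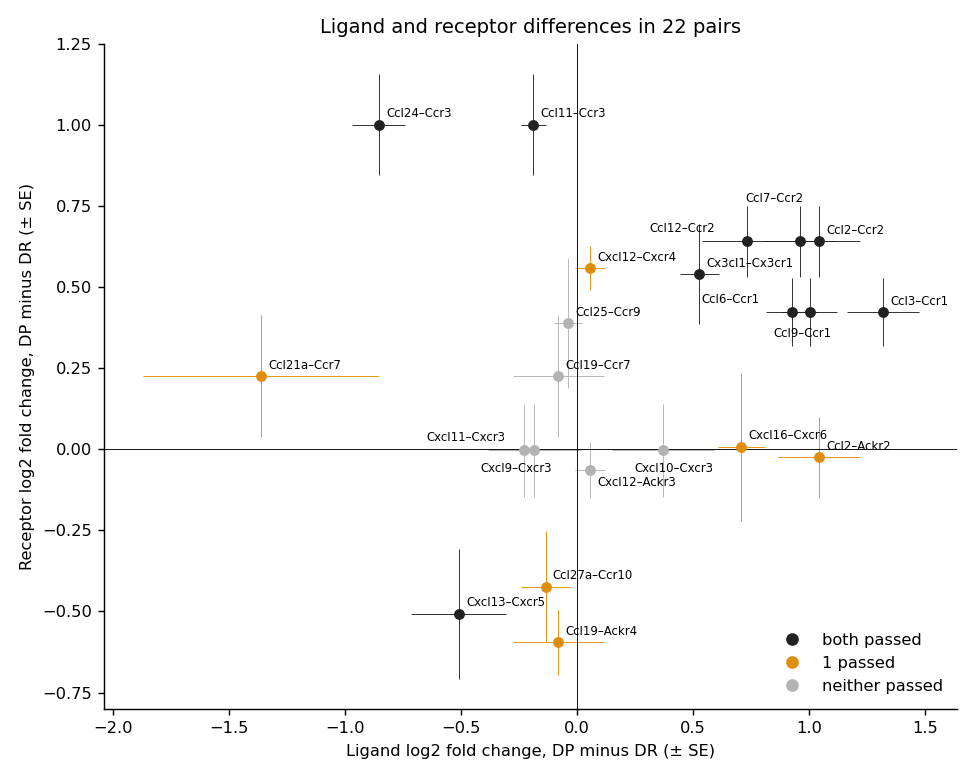
log2 fold change of the ligand (x axis) against that of its receptor (y axis), DP minus DR, ± SE for the 22 ligand and receptor pairs with both genes tested. Black points passed in both genes, orange in 1 and grey in neither, and 7 pairs that passed in both lie at the upper right, while *Ccl24* with *Ccr3* and *Ccl11* with *Ccr3* lie at the upper left.

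Ligands were then set beside their receptors. Of 30 pairs listed from known binding, 22 had both genes tested. In 7 pairs both genes were higher in DP: *Ccl2*, *Ccl7* and *Ccl12* with *Ccr2*, *Ccl3*, *Ccl6* and *Ccl9* with *Ccr1*, and *Cx3cl1* with *Cx3cr1*. Both genes were lower in 1 listed pair, *Cxcl13* with *Cxcr5*. The list does not hold every known pair, so these counts hold for the listed pairs alone. *Ackr4* was listed with *Ccl19* but not with *Ccl21a*, and both *Ackr4* and *Ccl21a* were lower. In 2 pairs the ligand was lower and the receptor higher, and both concern *Ccr3*, whose log2 fold change was 1.002 beside -0.85 for *Ccl24* and -0.19 for *Ccl11*.

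In 6 pairs a single gene passed. *Cxcr4* was higher beside *Cxcl12*, where the ligand did not pass. *Cxcl16* was higher beside *Cxcr6* and *Ccl2* beside *Ackr2*, where the receptor did not pass. *Ccl21a* was lower beside *Ccr7*, *Ccr10* was lower beside *Ccl27a*, and *Ackr4* was lower beside *Ccl19*. *Ackr2*, which clears inflammatory CC chemokines, had 2.69, 4.36 and 6.09 CPM in DP libraries, against 2.66, 4.399 and 6.04 CPM in DR libraries (log2 fold change -0.024 ± 0.13 SE, adjusted p = 0.887). In the other 6 pairs neither gene passed. Pairs that share a gene are not independent, since *Ccr2*, *Ccr1*, *Ccr3* and *Cxcr3* each stand in 2 or 3 of them.

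**Figure D5:**
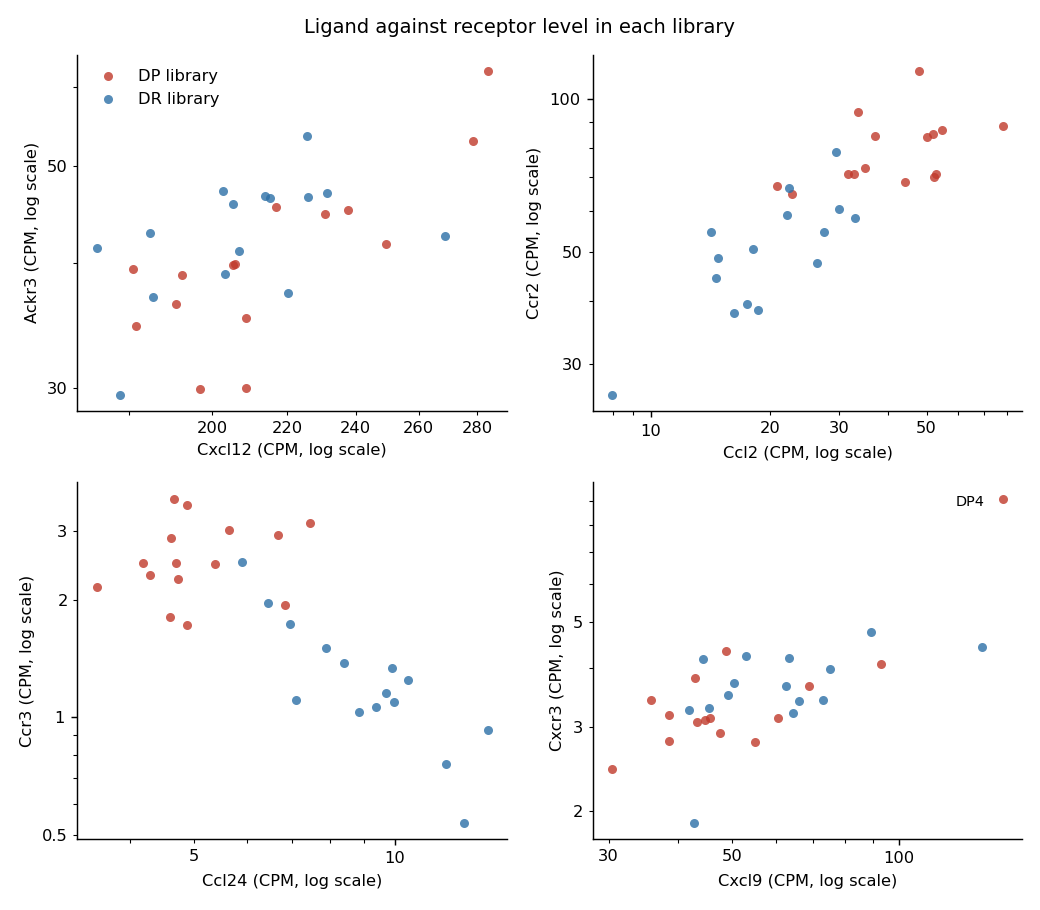
CPM of a ligand (x axis) and its receptor (y axis) in each DP library (red) and DR library (blue), both axes on a log scale, for 4 pairs. *Cxcl12* and *Ackr3* vary together among DP libraries (r = 0.783), *Ccl24* runs against *Ccr3* among DR libraries (r = -0.85), and DP replicate 4 stands apart for *Cxcl9* and *Cxcr3*.

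Whether a ligand and its receptor varied together from mouse to mouse was asked within each group, over 15 libraries each and never over both together. For each of the 44 relations (22 pairs in 2 groups), r was computed on log2 CPM with 100000 permutations and adjustment over all 44. Among DP libraries 4 passed and among DR libraries 3.

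*Ccl2* with *Ccr2* gave r = 0.478 in DP (rho = 0.471, permutation adjusted p = 0.226) and 0.774 in DR (rho = 0.686, permutation adjusted p = 0.0118, and rho did not pass at 0.0536), and 0.244 and 0.604 without the 2 libraries farthest from the median of the ligand. *Ccl7* with *Ccr2* gave 0.617 in DP (rho = 0.654, permutation adjusted p = 0.0753) and 0.781 in DR (rho = 0.754, permutation adjusted p = 0.00792), and 0.531 and 0.595 without the 2 farthest. *Ccl12* with *Ccr2* passed in DP alone (r = 0.741, rho = 0.718, permutation adjusted p = 0.0121), against r = 0.174 in DR (rho = 0.118, permutation adjusted p = 0.689). Without DP replicate 4, *Ccl12* with *Ccr2* had r = 0.615 (permutation adjusted p = 0.134). The difference in r between the groups was not tested for any pair.

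*Ccl24* with *Ccr3* was called with a negative sign. Among DR libraries r was -0.848 (rho = -0.804, permutation adjusted p = 0.00308), and -0.828 without the 2 farthest libraries. Both genes followed the macrophage markers within DR, and with the markers regressed out the call was lost (r = -0.479, permutation adjusted p = 0.185). Among DP libraries r was 0.221 (rho = 0.236, permutation adjusted p = 0.656). *Cxcl12* with its scavenger *Ackr3* passed in DP, where r was 0.783 (rho = 0.736, permutation adjusted p = 0.00792) and 0.515 without the 2 farthest libraries, and did not pass in DR (r = 0.484, rho = 0.457, permutation adjusted p = 0.226). *Cxcl9* and *Cxcl10* with *Cxcr3* had r = 0.821 and 0.779 in DP (rho = 0.471 and 0.389, permutation adjusted p = 0.0137 and 0.0195), but both rest on replicate 4. Without it r was 0.535 and 0.464, and 1 DP pair passed, *Cxcl12* with *Ackr3*.

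Some members, though not most, followed the macrophage markers within a group. How many of all genes did so was not computed, so the counts below show no trait particular to these members. The mean log2 CPM of the 20 markers was 6.91 to 7.25 in DP libraries and 5.79 to 6.77 in DR libraries, so that the marker level and the group cannot be told apart. Within DR, where the markers ranged more widely, 9 of 46 members followed them (adjusted over 92 relations): *Ccl6* at r = 0.986 (rho = 0.964, permutation adjusted p = 0.00023), *Ccl9* at 0.977, *Ccl4* at 0.885, *Ccl3* at 0.866, *Ccr3* at 0.833, *Ccr2* at 0.727, *Cxcl16* at 0.717, *Cxcl14* at 0.703 and, with the opposite sign, *Ccl24* at -0.85. The weakest, *Ccr2*, *Cxcl16* and *Cxcl14*, had permutation adjusted p of 0.0209, 0.0209 and 0.0263, but by rho *Ccr2* (0.124) and *Cxcl14* (0.0598) did not pass, and *Ccr2* dropped to r = 0.481 without the 2 farthest libraries. The unadjusted permutation p of *Ccl6*, *Ccl9* and *Ccl4* was 1e-05, the smallest that the permutations can give. Within DP only *Ccl6* (r = 0.953, rho = 0.943, permutation adjusted p = 0.00023) and *Ccl9* (r = 0.813, rho = 0.811, permutation adjusted p = 0.00333) passed. With the marker level as a covariate edgeR called 0 members higher and 0 lower (4 at an unadjusted p under 0.05), and 6 genes higher and 32 lower overall. With the markers regressed out within each group, 1 of the 3 DR pairs passed, *Ccl7* with *Ccr2* (r = 0.698, permutation adjusted p = 0.0309). *Ccl24* with *Ccr3* did not, nor did *Ccl2* with *Ccr2* (r = 0.655, permutation adjusted p = 0.0513). In DP *Ccl3* with *Ccr1* passed in that setting with a negative sign (r = -0.698, permutation adjusted p = 0.0272), against r = -0.342 (permutation adjusted p = 0.425) without it.

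Genes that carry or dampen the signal of chemokine receptors inside the cell were mostly higher. The *Arrb*, *Grk* and *Rgs* genes of this list dampen it, so the count is no measure of signal strength. Of 40 such genes 32 rose, 2 fell and 6 missed the threshold, beside 28.2% of all genes higher and 27.3% lower, and their median log2 fold change was 0.48. The receptor-silencing arrestin *Arrb2* averaged 91.2 ± 6.55 CPM in DP and 57.99 ± 8.35 CPM in DR (1.57-fold, adjusted p = 5.51e-10), the receptor kinase *Grk2* 114 ± 7.34 CPM in DP and 86.4 ± 7.14 CPM in DR (1.32-fold, adjusted p = 1.46e-09) and the leukocyte GTPase *Rac2*, which drives migration, 108 ± 10.3 CPM in DP and 62.6 ± 13.5 CPM in DR (1.72-fold, adjusted p = 3.57e-09). The inhibitory G protein subunit *Gnai1* was lower, at 248 ± 12.7 CPM in DP and 308 ± 18.5 CPM in DR (1.24-fold lower, adjusted p = 1.14e-09). The other gene that fell was *Rasgrp2* (1.41-fold lower), an activator of Rap1, which was named because the count is small. Unlike *Gnai1*, the inhibitory subunits *Gnai2* and *Gnai3* were higher. *Gnai2* averaged 724 ± 28.9 CPM in DP and 611 ± 36.05 CPM in DR (1.19-fold, adjusted p = 1.75e-08). *Gnai3* averaged 99.1 ± 5.27 CPM in DP and 93.9 ± 5.88 CPM in DR (1.06-fold, adjusted p = 0.033). Both were named after their values were seen. The macrophage markers, of which 16 of 20 rose, were higher in the same libraries, which holds for the next 3 lists as well.

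Other chemoattractant genes had 12 higher, 3 lower and 4 not passed of 19 tested, with a median of 0.46 (28.2% of all genes were higher and 27.3% lower). *C5ar1* and *C3ar1*, receptors of the complement fragments C5a and C3a, averaged 60.9 ± 9.87 CPM in DP and 29.4 ± 8.84 CPM in DR (2.07-fold) and 211 ± 37.2 CPM in DP and 95.4 ± 37.3 CPM in DR (2.21-fold). *Mif*, a cytokine that also binds CXCR2 and CXCR4, averaged 49.7 ± 4.52 CPM in DP and 36.03 ± 4.09 CPM in DR (1.38-fold), and its receptor chain *Cd74* 1556 ± 240.5 CPM in DP and 906 ± 184 CPM in DR (1.72-fold). These 4 had adjusted p of 1.29e-08, 1.84e-07, 1.31e-08 and 1.42e-08. The 3 that fell were chemerin (*Rarres2*, 1.11-fold lower) and its receptors *Cmklr1* (1.38-fold) and *Gpr1* (1.298-fold), named because the count is small. *Ccrl2*, a further chemerin-binding receptor in this list, went the other way. It averaged 9.93 ± 1.48 CPM in DP and 7.45 ± 1.29 CPM in DR (1.33-fold higher, adjusted p = 6.55e-05).

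Of 14 tested genes that cut, shed or hold chemokines, 10 were higher, 2 lower and 2 did not pass (median 0.67), against the same 28.2% and 27.3% of all genes. Of 10 progenitor and fibroblast markers 5 rose and 2 fell, and their part in these levels was not tested. The matrix metalloproteinases *Mmp14* (121 ± 18.5 CPM in DP and 65.8 ± 10.1 CPM in DR, 1.84-fold) and *Mmp2* (238 ± 37.8 CPM in DP and 139 ± 22.9 CPM in DR, 1.71-fold), which cleaves CCL7, the metalloproteinase inhibitor *Timp1* (38.6 ± 7.59 CPM in DP and 15.04 ± 5.19 CPM in DR, 2.56-fold) and the proteoglycan *Sdc1* (55.9 ± 8.098 CPM in DP and 30.7 ± 6.19 CPM in DR, 1.82-fold) had the smallest p, with adjusted p of 4.97e-10, 3.11e-09, 2.96e-09 and 2.15e-09. The 2 that fell were *Dpp4* (1.32-fold lower), which trims the amino terminus of chemokines, and *Mmp9* (1.29-fold lower). Of 13 cytokines that act on chemokine genes, to induce or to restrain them, 7 were tested and 4 were higher, 0 lower (28.2% and 27.3% of all genes). The count therefore has no single direction of effect on chemokine genes. *Tgfb1* was 1.52-fold higher (172 ± 16.8 CPM in DP and 114 ± 16.9 CPM in DR), *Tnf* 1.46-fold (3.52 ± 0.698 CPM in DP and 2.41 ± 0.633 CPM in DR), *Il1b* 1.48-fold (0.867 ± 0.265 CPM in DP and 0.585 ± 0.254 CPM in DR) and *Il10* 1.51-fold (0.671 ± 0.257 CPM in DP and 0.443 ± 0.233 CPM in DR), with adjusted p of 4.89e-09, 0.000244, 0.0088 and 0.0276. *Ifng* and *Il6* were among those too low to be tested.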

How the data were processed

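Total RNA of gWAT was sequenced in 15 DP and 15 DR mice, 1 library per mouse, grouped by the disease state in the labels. Gene-level estimated counts were deposited as whole numbers, for which the authors used StringTie 2.1.3b and the assembly GRCm38.p6. For the aligner, the annotation release and the strand setting, nothing was given in the sources used here. All 55401 genes and 30 columns were read. No 2 libraries agreed within sampling noise (among 435 pairs, the smallest ratio of chi-square to its degrees of freedom was 6.96). Counts are not unique molecules.

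edgeR 4.0.16 in R 4.3.3 was used with TMM, filterByExpr (minimum count 10, minimum total 15) and the quasi-likelihood F test on the group, with Benjamini-Hochberg adjustment over 17482 genes and a threshold of 0.05. FPKM used exon lengths and positions of GENCODE M21 on GRCm38. The test was tested on simulated data. Alternatives were DESeq2 1.42.0 (the study's tool), limma-voom 3.58.1, other scalings and filters, covariates and omitted libraries. Within-group relations used log2 CPM (prior count 2) and two-sided permutation tests with 100000 resamples.

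Of the genes the naming rule takes, 1 is not reported here and enters no count of members, though it stayed in the fits. Members, pairs and gene lists were chosen with earlier results of these data known. Fuller values were given for up to 12 ligands and 10 receptors with the smallest p and for pairs with at least 1 gene called, and up to 4 genes with the smallest p were named per list. Marker lists covered 15 cell types. Those not given in the report were lipid-associated macrophage (9 higher, 1 lower of 10), natural killer and innate lymphoid (2 and 0 of 10), mesothelial (0 and 7 of 8), smooth muscle and pericyte (2 and 5 of 8) and ovary and uterus (1 and 1 of 5). Of the adipocyte markers 0 rose and 14 of 15 fell. Promoter sequences are from RefSeq.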

Additional observations from a re-analysis of the deposited data

How the results depend on the processing

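Of the 30 called members, 24 kept their call under each of 12 alternatives that used another tool, scaling, filter, library number covariate or omitted library, where they were tested. The 6 that lost it under at least 1 of these 12 were *Ccl19-ps1*, *Ccl21a*, *Ccl22*, *Ccr10*, *Cxcl13* and *Cxcr5*. The 12 do not include the fits to libraries 183 to 197 alone or 198 to 212 alone. Further calls were lost there: *Ccl8*, *Ccl11*, *Ccl12*, *Ccr1* and *Cx3cr1* in libraries 198 to 212, and *Ccl19-ps3* in libraries 183 to 197. DESeq2 called 19 members higher and 11 lower, all 30 shared, and limma-voom 20 and 9. The count of lower members was 6 of 59 tested without the filter, 6 of 39 at mean CPM over 1, 7 of 32 at mean FPKM over 1 and 3 of 44 in libraries 198 to 212 alone (14 higher there), fits with other numbers of genes or libraries. Tested against a fold of at least 1.5, 5 were higher and 0 lower. The chemokine receptor signalling list had 4 lower genes under DESeq2 and without DR replicate 7, where the cause was not tested. Without DP replicate 4, 1 DP pair was correlated, and with macrophage markers regressed out 1 DR pair.

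With the macrophage marker covariate, 0 members were higher and 0 lower, and the 4 pathway lists had 0 higher and 0 lower. The sign reversed, without passing, for *Ccl19-ps1* (0.29), *Ccl21a* (0.65), *Ccl21b* (0.24), *Ccl21d* (0.18), *Ccl22* (-0.095), *Ccl6* (-0.087) and *Ccl9* (-0.049). The covariate separates the groups completely, so the 2 cannot be told apart. No other alternative reversed a member. No paired analysis was possible because each library came from another mouse and the labels name no pairs of DP and DR mice. Replicate numbers here only count the libraries of a group. Depth limits the 16 members not tested, and the group is a prediction of later disease.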

Other observations

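Spread from mouse to mouse was compared as the coefficient of variation. Of the 19 higher members, 13 had the larger one in DR and 6 in DP, with medians of 22.5% in DP and 29.9% in DR. Of the 11 lower members 8 varied more in DP, and of the 16 that did not pass 11 did, while over all 17482 genes tested 6848 varied more in DP and 10634 in DR (medians 11.4% and 12.6%). *Cxcl16* had 11.5% in DP and 28.03% in DR. *Cxcr3*, which did not pass, had 43.2% in DP and 18.6% in DR, where replicate 4 held the highest DP value. These are descriptions without a test. The coefficient of variation also holds counting error, which is larger at low counts, so it does not show spread between mice alone.

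DP replicate 4 held the highest DP level of 15 members. They include the CXCR3 ligands *Cxcl9* and *Cxcl10*, the receptors *Cxcr3*, *Cxcr6*, *Ccr7* and *Xcr1*, and also *Ccl5*. Among DR libraries replicate 9 held the highest level of 11 members. *Pf4* and *Ppbp*, the platelet CXC chemokines whose symbols the rule did not take, were also higher in DP, at 46.97 ± 2.91 CPM in DP and 36.6 ± 4.42 CPM in DR (1.28-fold, edgeR adjusted p = 2.09e-07) and 0.881 ± 0.372 CPM in DP and 0.615 ± 0.2295 CPM in DR (1.43-fold, adjusted p = 0.0223), and *Xcl1*, the XCR1 ligand, averaged 0.825 ± 0.372 CPM in DP and 0.728 ± 0.422 CPM in DR (adjusted p = 0.556). These were named after their values were seen.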
